A study of Mus musculus with 18 samples.

Results

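The transcriptome of cultured mouse lung cells 48 h after withdrawal of CHIR99201 was compared with that of cells kept with the compound, using 6 of the 18 libraries of the study, 3 in each group. Libraries were assigned to their groups by their labels alone. The labels call the cells alveolar type 2 and state no strain, genotype, sex or age of the donor mice. Before the experiment every culture spent 19 days in CHIR99201 (CHIR below), a small molecule that the series describes as a Wnt agonist. The control group carried LGK974 together with CHIR, and the 48 h group carried LGK974 without CHIR. LGK974, an inhibitor of the acyltransferase porcupine, blocks secretion of Wnt ligands and was shared by both groups, so neither group should be read as untreated. The treatment protocol gives 8 to 12 h for the whole set of conditions, and does not say how that time relates to the 48 h of withdrawal. The labels leave unsaid whether the 3 libraries of each group are separate cultures or mice, so p-values here measure the spread between libraries, which may be technical.

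Canonical Wnt signalling protects beta-catenin from a destruction complex built around Axin, Apc and the kinase Gsk3. Stabilised beta-catenin then joins Tcf and Lef factors in the nucleus and switches on targets that include feedback inhibitors such as Axin2 and Nkd1. In the alveolus, Wnt-responsive type 2 cells make surfactant and serve as progenitors, and type 2 cells give rise to the thin type 1 cells that carry gas exchange and fluid transport. Growing cells also run biosynthetic programmes: synthesis of serine and one-carbon units, charging of tRNAs with amino acids, and assembly of ribosomes in the nucleolus. The transcription factor Atf4 drives many amino acid synthesis, transport and tRNA charging genes when amino acids are short or when growth signalling is high.

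Total gene counts were 34458610, 41386215 and 43631637 in CHIR 1, 2 and 3, and 34087850 to 42304089 in the 48 h libraries. The CHIR libraries stood further from the rest than the 48 h libraries: the median correlation of a library with the other 17 was 0.98 in each 48 h library, and 0.93, 0.97 and 0.94 in CHIR 1, 2 and 3. CHIR 3 carried some airway transcripts that were near 0 in the other 5 libraries, with Scgb1a1 at 50.8 CPM, Bpifa1 at 85.2 CPM and Reg3g at 26.5 CPM (CPM, counts scaled by the TMM-adjusted library size). Other airway transcripts were not confined to CHIR 3. Cyp2f2 was at 44.9, 46.0 and 686.5 CPM in CHIR 1, 2 and 3, and at 511 to 648 CPM after 48 h. Cbr2 was at 0.903, 1.59 and 109 CPM in CHIR 1, 2 and 3, and at 29.7 to 76.8 CPM after 48 h. Counts of Xist, an RNA of the X chromosome, came to 1 in CHIR 3 and lay between 324 and 812 elsewhere among the 6. Ddx3y, a gene of the Y chromosome, was nevertheless present in each of the 6. Its level was 45.0, 39.0 and 62.7 CPM in CHIR 1, 2 and 3, and 36.6 to 40.8 CPM after 48 h. The sex of the donor mice was not tested. Mitochondrially encoded genes took 0.718%, 0.511% and 0.271% of counts in CHIR 1, 2 and 3, and 0.551% to 0.622% in the 48 h libraries. Type 2 markers were abundant in sum, since 31 type 2 genes together reached 130918 to 184834 CPM with CHIR and 183760 to 190545 CPM after 48 h. Much of each sum came from Sftpc and Scd1. Single markers such as Abca3 and Nkx2-1 were lower in CHIR 1 than in the other 5 libraries, so the sum does not speak for each marker. Ptprc, Col3a1 and Cdh5, defining genes of blood, mesenchymal and endothelial cells, were at 0 to 3 counts in each of the 6. In bulk RNA, a change in the share of a cell type and a change in RNA per cell cannot be told apart.

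Of 16497 genes that passed the filter on low counts, 181 (1.1%) rose and 246 (1.49%) fell after 48 h at an edgeR adjusted p under 0.05, together 2.59% of the genes tested. The median log2 difference over all genes tested was -0.04. Every one of the 181 genes called higher had its 3 48 h libraries above the 3 CHIR libraries, and 245 of the 246 called lower had them below. Among all genes tested, 14.5% lay fully above and 14.5% fully below. At an unadjusted p under 0.05, 16.5% of genes passed. DESeq2 called 3.72% of the genes it tested higher and 5.22% lower, and limma voom 2.94% and 3.77%. The number called depended on single libraries: it was 57, 87 and 74 without 48 h library 1, 2 or 3, and 197, 585 and 920 without CHIR 1, 2 or 3.

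**Figure D1:**
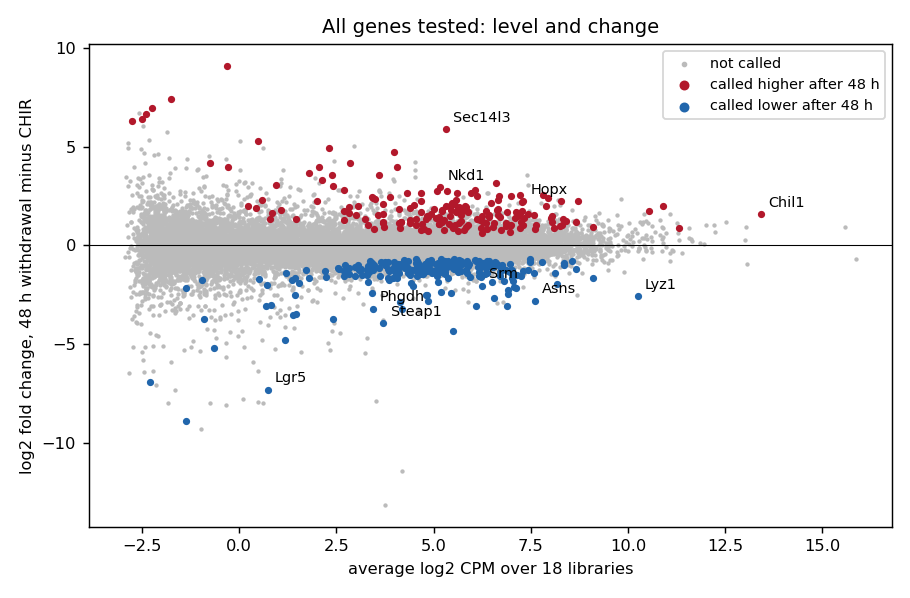
Log2 fold change (48 h withdrawal minus CHIR) of the 16497 genes tested against their average log2 CPM over 18 libraries, with the 181 called higher in red and the 246 called lower in blue. Phgdh, Asns and Srm lie below 0, and Hopx, Chil1, Nkd1 and Sec14l3 above it.

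Each CHIR library was then used alone as the control. With the other CHIR libraries left out, and the remaining 16 libraries in the fit, 1751 genes rose (9.55%) and 1091 fell (5.95%) against CHIR 1. Against CHIR 2, 75 rose (0.409%) and 48 fell (0.262%), and against CHIR 3, 28 rose (0.153%) and 69 fell (0.376%). Of the 427 genes called against all 3 CHIR libraries, 370 (86.7%), 83 (19.4%) and 55 (12.9%) were called against CHIR 1, 2 and 3 alone, and 17 (3.98%) against each of them. When 24 h withdrawal 2 and FZD6 agonist 1, 2 libraries of other groups that also stood apart, were left out of the fit as well, 14 libraries remained. Genes called higher and lower then made up 28.6% and 24.2% of those tested against CHIR 1, 13.6% and 13.9% against CHIR 2, and 20% and 20.1% against CHIR 3. Of the 427, 422 (98.8%), 421 (98.6%) and 417 (97.7%) were called against CHIR 1, 2 and 3 alone, and 407 (95.3%) against each in the same direction; over all genes tested those shares were 4.68% higher and 4.82% lower. These fits assume that a lone CHIR library varies as the other groups do, and their p-values leave out how much CHIR libraries vary.

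The 17 genes that held against each CHIR library in the 16-library fits were 5 higher (0.0303% of genes tested) and 12 lower (0.0727%). Steap1 is a protein of the plasma membrane (chromosome 5, 5736317 to 5749326, GRCm38 as for all positions here). Its level was 53.1, 28.2 and 32.0 CPM in CHIR 1, 2 and 3 and 2.43, 2.25 and 2.73 CPM in the 48 h libraries. Steap1 fell by 3.93 log2 units (SE 0.35, edgeR adjusted p = 0.000129), with log2 changes of -4.41, -3.50 and -3.70 against CHIR 1, 2 and 3 alone. Car2, a carbonic anhydrase that hydrates carbon dioxide (chromosome 3, 14886273 to 14900770), was at 286, 169 and 119 CPM under CHIR against 26.1, 34.3 and 29.2 CPM after 48 h. Every 48 h library thus lay more than 3-fold under the lowest CHIR library, and Car2 fell by 2.68 (SE 0.33, edgeR adjusted p = 0.00257). Fbp1, the gluconeogenic enzyme fructose bisphosphatase (chromosome 13, 62864753 to 62888282), was at 32.3, 16.2 and 91.8 CPM under CHIR against 281, 246 and 297 CPM after 48 h. It rose by 2.56 (SE 0.45, edgeR adjusted p = 0.00957), least against CHIR 3 alone (1.58). Tuba8, an alpha tubulin, rose from 1.12, 0.353 and 0.728 CPM to 11.7, 16.8 and 11.6 CPM. Crebrf, a regulator of the stress factor Creb3, rose from 7.03, 5.88 and 10.7 CPM to 33.4, 35 and 28.2 CPM. Sec14l4 and Tspan11, a lipid-binding protein and a tetraspanin, completed the higher set with log2 changes of 1.63 and 2.21. Of the 12 lower genes, Phgdh, Psat1 and Shmt2 belong to serine and glycine synthesis. Srm, Mettl1, Lyar, Grwd1 and Rrp9 act in polyamine synthesis, tRNA methylation and ribosome assembly. Yars2, the mitochondrial tyrosyl-tRNA synthetase, fell by 1.18, and Cdca7l, a Myc-binding nuclear protein, by 1.37.

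Many genes of serine, proline and one-carbon synthesis fell. Of 18 listed genes 17 were tested; 8 fell (1.49% of all genes tested did) and 0 rose, with a median log2 difference of -2.03 over those tested, against -0.04 for all genes. Phgdh, the first enzyme of serine synthesis from glycolytic 3-phosphoglycerate (chromosome 3, 98313170 to 98339990), was at 16.9, 23.6 and 34.6 CPM with CHIR. After 48 h it was at 2.58, 2.70 and 2.84 CPM, and fell by 3.21 log2 units (SE 0.44, edgeR adjusted p = 0.00344). Psat1, the aminotransferase that follows it (chromosome 19, 15904678 to 15947337), was at 274, 230 and 277 CPM under CHIR against 41.6, 46.1 and 52.0 CPM after 48 h. Its 3 CHIR libraries lay close together and far above the 48 h libraries, and it fell by 2.48 (SE 0.35, edgeR adjusted p = 0.00398). Psph, the phosphatase of the last step, fell from 65.3, 50.3 and 126 CPM to 14.5, 17.7 and 14.7 CPM. Glycine and folate enzymes fell with them. Shmt2, the mitochondrial serine hydroxymethyltransferase, went from 146, 236 and 318 CPM to 45.4, 47.1 and 52.2 CPM, and its cytosolic counterpart Shmt1 from 91.6, 63.8 and 62.0 CPM to 24.5, 25.6 and 28.0 CPM. Mthfd2, the mitochondrial methylenetetrahydrofolate dehydrogenase, fell by 3.09 (SE 0.59, edgeR adjusted p = 0.0132), from 168, 142 and 468 CPM to 34.1, 27.1 and 29.9 CPM. The proline synthesis enzymes Aldh18a1 and Pycr1 fell, with log2 changes of -2.17 and -2.54.

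The fall did not extend to the whole one-carbon pathway. Mthfd1, the cytosolic trifunctional folate enzyme, was at 201, 287 and 255 CPM under CHIR against 296, 311 and 299 CPM after 48 h (edgeR adjusted p = 0.80). Aldh1l1, a cytosolic folate dehydrogenase, had a fitted difference of 0.97 and was not called, whereas its mitochondrial relative Aldh1l2 had -2.26 (edgeR adjusted p = 0.0674). The list median was -1.51, -1.67 and -1.84 against CHIR 1, 2 and 3 alone in the 16-library fits. Leaving out a CHIR library left 6 to 8 calls, and leaving out a 48 h library left 3 in each case.

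Targets of Atf4 were lower in the fitted values of 21 of 22 genes, and 5 of them were called: Asns, Eif4ebp1, Gdf15, Slc7a11 and Stc2. Over all 16497 genes tested, 8649 had lower fitted values and 1.49% were called lower. The median log2 difference was -2.20. Asns, asparagine synthetase (chromosome 6, 7675169 to 7693254), was at 360, 306 and 689 CPM under CHIR against 69.2, 61.2 and 63.1 CPM after 48 h. It fell by 2.81 (SE 0.50, edgeR adjusted p = 0.0101). Eif4ebp1, the translation repressor 4E-BP1, went from 239, 148 and 263 CPM to 64.4, 34.5 and 52.0 CPM. Gdf15, a stress-induced secreted factor, was at 70.4, 46.6 and 231 CPM under CHIR against 5.37, 4.95 and 6.52 CPM after 48 h, so that the groups were far apart although CHIR 3 was more than 3-fold above the other CHIR libraries. CHIR 3 was the highest CHIR library for many of these genes: Trib3, a pseudokinase, was at 75.1, 95.5 and 417 CPM under CHIR against 37.3, 13.9 and 29.9 CPM after 48 h, and was not called (edgeR adjusted p = 0.05001). Cth, the transsulfuration enzyme, was at 5.50, 5.86 and 79.9 CPM against 0.899, 0.356 and 0.809 CPM (edgeR adjusted p = 0.0625). Atf4 itself was at 113, 198 and 321 CPM under CHIR against 87.0, 73.3 and 73.4 CPM after 48 h; the groups did not overlap, and the difference of -1.44 was not called (SE 0.46, edgeR adjusted p = 0.115). Against CHIR 1, 2 and 3 alone the list median was -1.22, -1.30 and -3.03. The count of calls fell from 5 to 2 without CHIR 3 and to 0 without any one of the 48 h libraries.

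Promoters of the amino acid genes were searched for TGATGNAA, the core of the amino acid response element that Atf4 binds with C/EBP partners, on both strands from 250 bases before to 50 bases after the RefSeq start (GRCm38.p6). It was present at 9 of 20 Atf4 targets with a promoter in the table (45%), at 5 of 13 cytosolic tRNA synthetase genes (38.46%), at 3 of 16 amino acid transporter genes (18.75%) and at 1 of 14 serine, proline and one-carbon genes (7.143%). The share over all 27025 genes was 4.511%. The Atf4 list holds genes counted as targets of this factor, so its share of matches was not independent of the choice of list. The shares cover called and uncalled members alike: Atf3, Chac1 and Trib3 held a match and were not called. Whether Atf4 took part in these changes was not tested. Phgdh, Psat1, Shmt2 and Mthfd2, among the steepest falls, had no match in this window, which says only that these letters were not found there. The matches of 7 genes called lower are shown with up to 40 bases on either side, because they are the fallen genes of the 4 lists in which the letters occur; the match is in capitals and may read on either strand. The windows are chr6:7693190-7693272, minus strand, for Asns, chr3:50443613-50443719, minus strand, for Slc7a11, chr11:120643804-120643891, minus strand, for Pycr1, chr15:11399639-11399713, minus strand, for Tars, chr4:129189866-129189922, plus strand, for Yars, chr13:49682097-49682149, plus strand, for Iars and chr11:20332694-20332757, minus strand, for Slc1a4. Each is written 5′ to 3′ along the gene.
Asns: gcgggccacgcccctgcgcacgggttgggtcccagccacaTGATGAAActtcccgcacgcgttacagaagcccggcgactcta
Slc7a11: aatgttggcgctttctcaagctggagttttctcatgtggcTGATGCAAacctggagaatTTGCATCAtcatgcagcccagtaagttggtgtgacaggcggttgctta
Pycr1: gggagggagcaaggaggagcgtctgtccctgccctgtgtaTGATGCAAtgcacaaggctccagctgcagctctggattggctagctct
Tars: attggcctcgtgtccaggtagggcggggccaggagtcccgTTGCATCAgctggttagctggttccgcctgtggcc
Yars: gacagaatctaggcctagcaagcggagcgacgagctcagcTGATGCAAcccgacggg
Iars: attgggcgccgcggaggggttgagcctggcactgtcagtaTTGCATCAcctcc
Slc1a4: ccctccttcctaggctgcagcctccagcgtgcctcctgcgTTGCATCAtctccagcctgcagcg
The match of Asns begins 23 bases before the start, those of Tars and Slc1a4 15 and 4 bases before it, and that of Yars 3 bases after it. Slc7a11 carries a pair of matches facing each other. The transporter Slc7a7, whose promoter also holds the letters, rose, so the letters were not limited to genes that fell.

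Aminoacyl-tRNA synthetases, which attach amino acids to their tRNAs, fell in 9 of 20 cytosolic genes (1.49% of all genes tested fell) and rose in 0, with a median log2 difference of -1.34. Tars, for threonine (chromosome 15, 11382301 to 11399665), was at 285, 189 and 245 CPM under CHIR against 80.3, 91.6 and 82.7 CPM after 48 h, and fell by 1.498 (SE 0.23, edgeR adjusted p = 0.00633). Cars, for cysteine, was at 201, 154 and 239 CPM and at 60.0, 51.5 and 57.2 CPM. Nars, for asparagine, was at 559, 365 and 763 CPM and at 141, 144 and 142 CPM, the lowest CHIR library still more than 2-fold above the 48 h libraries. Yars, Mars, Rars, Eprs, Hars and Iars fell, with log2 changes from -0.79 to -1.86. Not all synthetases moved: Qars, for glutamine, was at 58.6, 52.2 and 50.3 CPM under CHIR against 61.8, 63.8 and 63.6 CPM after 48 h, with no call (edgeR adjusted p = 0.557). Farsa and Kars differed by -0.34 and -0.49 without a call. Of the 20 genes, 17 had all 48 h libraries below all CHIR libraries, against 14.5% of genes tested. The median was -0.94, -0.96 and -1.70 against CHIR 1, 2 and 3 alone in the 16-library fits. Without 48 h library 1, 2 or 3 the calls numbered 2, 3 and 2, and without a CHIR library 8 or 9.

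Amino acid transporters moved in both directions. Of 21 tested, Slc1a4, Slc7a1 and Slc7a11 fell (1.49% of all genes tested did), and Slc15a2 and Slc7a7 rose (1.1% did). Slc7a11, the cystine transporter of system xc-, was at 46.5, 83.8 and 187 CPM under CHIR against 19.6, 4.12 and 14.3 CPM after 48 h (log2 change -3.06 ± 0.76 SE, edgeR adjusted p = 0.0467). It lost its call in each of the 6 omissions of a library. Slc7a1, the cationic amino acid transporter, was at 22.4, 62.6 and 74.3 CPM and at 14.6, 14.9 and 14.5 CPM. Slc15a2, a peptide transporter of the apical membrane, was at 3.17, 3.62 and 4.79 CPM with CHIR and rose to 18.8, 20.3 and 23.4 CPM (log2 change 2.43 ± 0.44 SE, edgeR adjusted p = 0.0108). The large neutral transporter Slc7a5 was at 51.1, 300 and 529 CPM under CHIR against 67.8, 60.6 and 73.9 CPM after 48 h; CHIR 1 lay below the 48 h libraries and CHIR 2 and 3 above them, and it was not called. The median of the list was -0.76, and it turned to 0.41 against CHIR 1 alone and to -0.00 without CHIR 3. Without CHIR 3, 3 transporters were called higher and 0 lower.

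**Figure D2:**
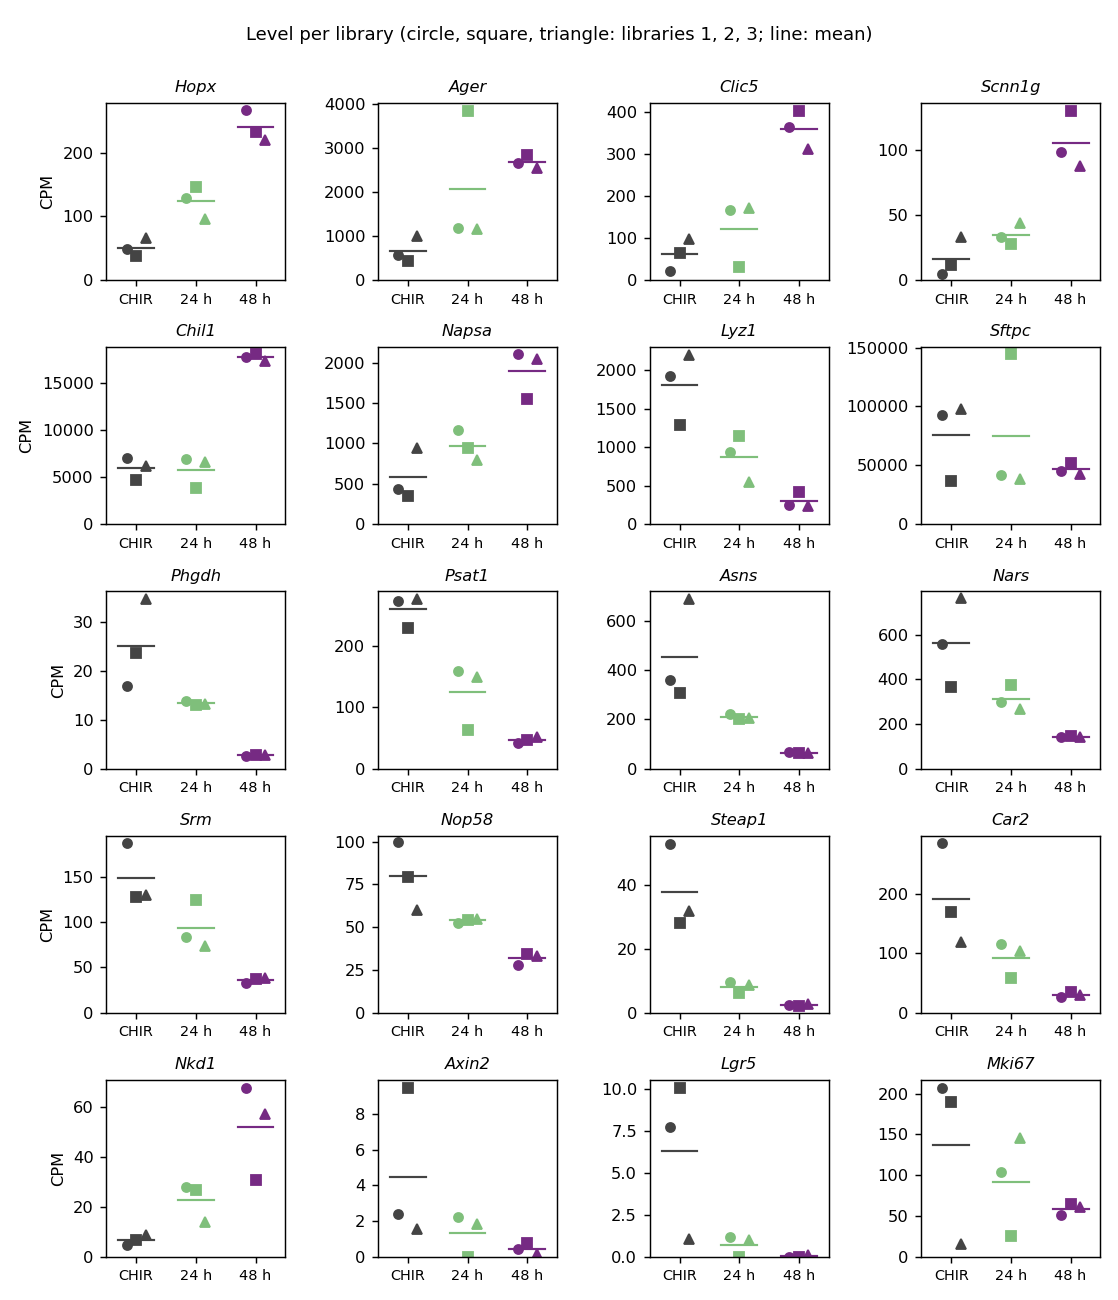
Level in CPM of 20 genes in each of the 3 libraries with CHIR, after 24 h and after 48 h of withdrawal (circle, square and triangle for libraries 1, 2 and 3; line, mean). Hopx, Chil1 and Nkd1 lie higher in all 48 h libraries, Phgdh, Psat1, Srm and Steap1 lower, and Sftpc and Mki67 overlap with CHIR; the 24 h square is a library that stood apart.

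Ribosome assembly held the most calls of any list. Of 30 genes tested, 17 fell, against 1.49% of all genes, and 0 rose, with a median log2 difference of -1.07, and 24 had all 48 h libraries below all CHIR libraries (14.5% of genes tested did). Srm, spermidine synthase (chromosome 4, 148591503 to 148594993), makes a polyamine and stands in this list as a growth gene. It was at 188, 128 and 130 CPM under CHIR against 32.7, 37.0 and 38.8 CPM after 48 h, and fell by 2.04 (SE 0.25, edgeR adjusted p = 0.00257). Mettl1, which methylates guanosine in tRNA (chromosome 10, 127041414 to 127046365), was among the most uniform, at 16.2, 16.6 and 14.9 CPM against 3.52, 4.33 and 5.16 CPM, and fell by 1.88 (SE 0.26, edgeR adjusted p = 0.00344). The box C/D ribonucleoprotein genes Nop58 and Nop56 fell, with log2 changes of -1.32 and -1.42, Nop58 from 100, 79.1 and 60.3 CPM to 28.1, 34.3 and 33.1 CPM. The box H/ACA genes Dkc1, Nhp2 and Gar1, whose products guide pseudouridylation, fell, with log2 changes of -1.21, -1.599 and -1.18. Ncl, nucleolin, fell from 550, 492 and 382 CPM to 223, 242 and 240 CPM. Rrp9 was at 52.7, 55.5 and 55.2 CPM and fell to 19.2, 23.9 and 21.9 CPM, a gene in which CHIR libraries 1 and 3 did not stand apart.

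The regulators Myc and Mycn, which drive such genes in many tissues, gave no call. Myc was at 22.6, 29.2 and 146 CPM under CHIR against 22.4, 19.6 and 22.1 CPM after 48 h, so that CHIR 1 and 2 were close to the 48 h libraries and CHIR 3 alone was high (log2 change -1.62, edgeR adjusted p = 0.154). Mycn was at 28.1, 72.8 and 13.1 CPM against 45.8, 58.0 and 46.0 CPM. The RNA polymerase I subunits Polr1a, Polr1b and Polr1c were not called, with differences of -0.47, -0.67 and 0.21. The ribosome assembly list had medians of -1.12, -1.03 and -0.89 against CHIR 1, 2 and 3 alone in the 16-library fits. Calls numbered 14, 17 and 17 without CHIR 1, 2 and 3, and 5, 9 and 6 without 48 h library 1, 2 and 3.

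**Figure D3:**
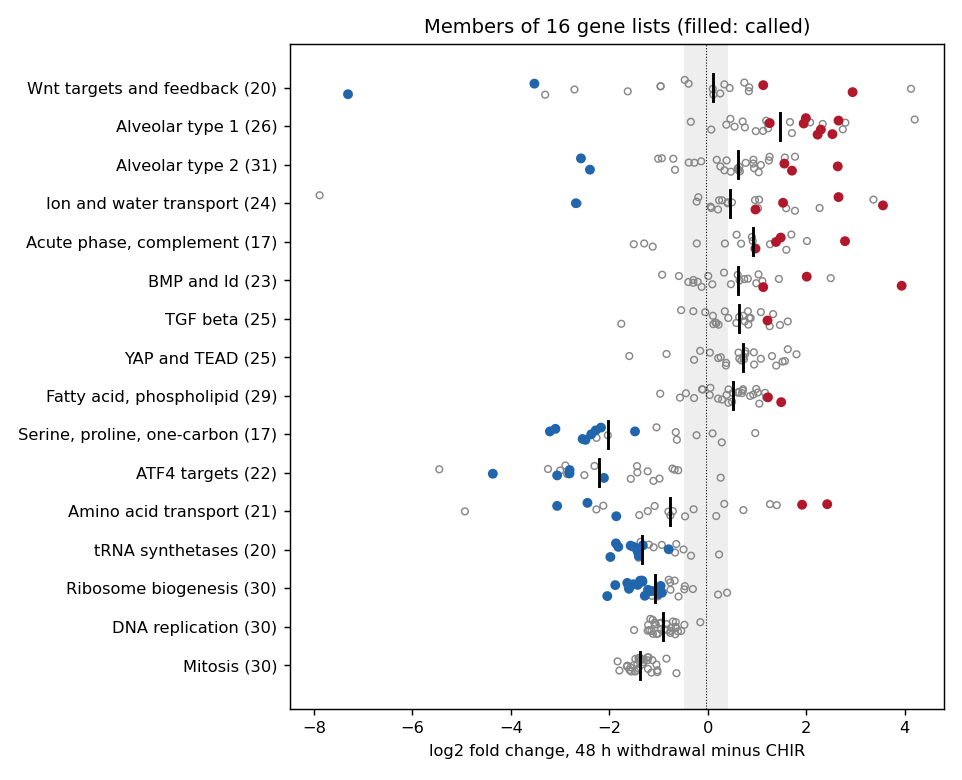
Log2 fold change (48 h withdrawal minus CHIR) of the tested members of 16 gene lists; filled points are called, the black bar is the list median, the grey band spans the quartiles of all genes and the dotted line their median. Calls in the serine, Atf4, tRNA synthetase and ribosome lists are all below 0, those of the alveolar type 1 list all above 0, and the cell cycle lists hold none.

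Alveolar type 1 genes lay above CHIR after 48 h. Of 26 genes, 7 rose (Hopx, Cryab, Scnn1g, Col4a3, Clic5, Ager and Limch1) and 0 fell, with a median log2 difference of 1.47. Over all genes tested 1.1% rose. In 19 genes every 48 h library exceeded every CHIR library, as in 14.5% of all genes tested. Clic5, a chloride channel-like protein tied to the actin cortex, was at 22.8, 64.6 and 99.0 CPM under CHIR against 364, 403 and 314 CPM after 48 h (log2 change 2.54 ± 0.58 SE, edgeR adjusted p = 0.0295). Scnn1g, the gamma subunit of the epithelial sodium channel that clears alveolar fluid, was at 4.73, 11.9 and 33.2 CPM under CHIR against 98, 130 and 87.8 CPM after 48 h. Col4a3, a basement membrane collagen chain, was at 10.9, 10.2 and 26.7 CPM and then at 71.0, 98.9 and 65.7 CPM. Cryab, a small heat shock protein, rose from 25.9, 14.6 and 23.1 CPM to 91.5, 75.8 and 78.3 CPM. Hopx, a homeodomain cofactor found in type 1 cells, had single-library values of 48.4, 37.8 and 66.6 CPM with CHIR and of 266, 232 and 220 CPM after 48 h, and Ager, a membrane receptor of type 1 cells, of 572, 428 and 1013 CPM and of 2666, 2828 and 2541 CPM.

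Some markers of type 1 cells had large differences without a call. Cav1, caveolin 1, was at 0.903, 3.28 and 2.00 CPM under CHIR against 44.7, 40.7 and 29.4 CPM after 48 h (log2 change 4.21 ± 1.13 SE, edgeR adjusted p = 0.0626). Pdpn, podoplanin, was at 0.711, 2.73 and 1.08 CPM against 10.9, 8.01 and 11.6 CPM, and Cldn18, a tight junction claudin, at 264, 422 and 146 CPM against 1322, 1630 and 1249 CPM. Aqp5, a water channel of type 1 cells, was at 3263, 2580 and 5795 CPM under CHIR against 3884, 4426 and 3928 CPM after 48 h, inside the CHIR range. The summed level of the 26 genes was 5812, 6413 and 10830 CPM in CHIR 1, 2 and 3 and 13561 to 15296 CPM after 48 h. The list median was 2.02, 1.61 and 1.199 against CHIR 1, 2 and 3 alone in the 16-library fits. Calls numbered 2 without CHIR 1 or CHIR 2, 10 without CHIR 3, and 2 without each of the 48 h libraries.

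Alveolar type 2 genes were split. Chil1, S100g and Napsa rose, and Lyz1 and Bex2 fell, out of 31 tested (median log2 difference 0.62). Of all genes tested 1.1% rose and 1.49% fell. Chil1, a chitinase-like secreted protein (chromosome 1, 134182176 to 134190181), was at 7098, 4768 and 6194 CPM under CHIR against 17780, 18110 and 17330 CPM after 48 h, a rise of 1.56 (SE 0.27, edgeR adjusted p = 0.00893). S100g, the calcium-binding protein calbindin-D9k, was at 13.4, 9.74 and 17.9 CPM and then at 83.9, 95.7 and 77.2 CPM. Napsa, the protease napsin A that processes surfactant protein B, was at 438, 352 and 948 CPM and at 2101, 1551 and 2046 CPM. Lyz1, a secreted lysozyme (chromosome 10, 117287797 to 117292868), was at 1917, 1289 and 2197 CPM and fell to 254, 418 and 234 CPM (log2 change -2.58 ± 0.53 SE, edgeR adjusted p = 0.0179). Its near-identical neighbour Lyz2 was at 1354, 748 and 257 CPM under CHIR against 1226, 1234 and 1135 CPM after 48 h without a call; reads shared by the pair make either value uncertain. Bex2 fell from 31.3, 23.6 and 16.4 CPM to 3.94, 6.41 and 3.23 CPM.

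Surfactant protein genes gave no call. Sftpc was at 93170, 36670 and 97700 CPM in CHIR 1, 2 and 3 and at 45180, 51930 and 43120 CPM after 48 h, so the 48 h libraries lay between CHIR 2 and the other CHIR libraries (log2 change -0.70 ± 0.49 SE, edgeR adjusted p = 0.523). Against CHIR 2 alone the difference was 0.36, and against CHIR 1 and 3 it was -0.98 and -1.07. The lamellar body transporter Abca3 was at 190, 1138 and 920 CPM under CHIR against 1592, 1487 and 1674 CPM after 48 h, and the lineage factor Nkx2-1 at 101, 401 and 398 CPM and at 576, 623 and 647 CPM. Both were above CHIR in every 48 h library, and neither was called (edgeR adjusted p = 0.321 and 0.152). Scd1, a fatty acid desaturase, was at 35710, 40700 and 34100 CPM and at 73230, 67780 and 69010 CPM without a call (edgeR adjusted p = 0.348). Without CHIR 1, 2 type 2 genes were called higher and 0 lower, and without CHIR 3, 5 were called higher and 2 lower. Without 48 h library 1, 2 or 3, 2 or 3 were called higher and 0 lower.

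Wnt targets did not move as one. Of 29 listed, 20 were tested, and their median was 0.11. Nkd1 and Bambi rose (1.1% of all genes tested did), and Lgr5 and Sox9 fell (1.49% did). Nkd1, an inhibitor that binds Dishevelled and is itself a Wnt target (chromosome 8, 88521354 to 88594884), had values of 4.81, 6.57 and 8.81 CPM with CHIR and of 67.8, 30.6 and 57.2 CPM after 48 h. Its call held in each omission of a library. In the 16-library fits its log2 difference was 3.44, 2.995 and 2.56 against CHIR 1, 2 and 3 alone. Those fits called it against CHIR 1 but not against CHIR 2 or 3, whereas the 14-library fits called it against each. Bambi, a decoy receptor of the BMP and TGF beta pathways, rose from 11.4, 11.4 and 19.9 CPM to 31.4, 30.0 and 32.2 CPM. Lgr5, a receptor for R-spondins, had 7.74, 10.1 and 1.06 CPM with CHIR, and 0, 0 and 4 counts in the 48 h libraries. Sox9, a progenitor transcription factor, had 2.71, 5.18 and 0.517 CPM against 0.486, 0.0297 and 0.195 CPM, with CHIR 3 just above the highest 48 h library. Axin2, with Tcf7, was lower in all 48 h libraries at low levels and without a call: 2.38, 9.43 and 1.55 CPM against 0.413, 0.771 and 0.167 CPM for Axin2 (edgeR adjusted p = 0.110), and 4.49, 8.49 and 1.25 CPM against 0.802, 0.445 and 0.920 CPM for Tcf7 (edgeR adjusted p = 0.141). CHIR 2 was the highest CHIR library for both. The ubiquitin ligase Rnf43 and the transcription factor Sp5, other feedback genes, were inside the CHIR range after 48 h, at 37.1, 37.4 and 42.3 CPM and 71.0, 73.9 and 82.2 CPM. Ccnd1 was at 232, 100 and 121 CPM under CHIR against 108, 114 and 106 CPM after 48 h. The calls for Lgr5 and Sox9 were lost without CHIR 1 and without any one of the 48 h libraries, and that for Sox9 also without CHIR 2. The TCF and LEF core ATCAAAG was present in 2 of 17 Wnt target promoters (Sp5 and Tnfrsf19), against 4.292% of all genes; Sp5 was not called, and Tnfrsf19 did not pass the filter on low counts.

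Ligands and receptors of the pathway gave 1 call. Among 10 ligand and secretion genes tested, Wnt3a was the only one called, as higher (1.1% of all genes tested were). It had no count in the CHIR libraries and was at 1.02, 2.94 and 1.14 CPM after 48 h, at least 23.3-fold above a floor of 3 counts in each CHIR library (edgeR adjusted p = 0.0397). The call was lost in each of the 6 omissions. Wls, which carries Wnt ligands to the cell surface, was at 275, 343 and 472 CPM and at 598, 689 and 570 CPM without a call. Of 24 receptor and transducer genes, edgeR called 0, and 5 were higher at an unadjusted p under 0.05. Over all genes tested 16.5% passed it in either direction. DESeq2 and limma voom called 2 each of the 24 as higher. In this list 10 had all 48 h libraries above all CHIR libraries (14.5% of genes tested did). Ctnnb1, beta-catenin itself, was at 413, 695 and 552 CPM under CHIR against 1101, 1171 and 1057 CPM after 48 h (log2 change 1.003 ± 0.30 SE, edgeR adjusted p = 0.0944). Fzd3 was at 6.73, 8.75 and 3.43 CPM and at 15.3, 15.7 and 13.7 CPM.

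**Figure D4:**
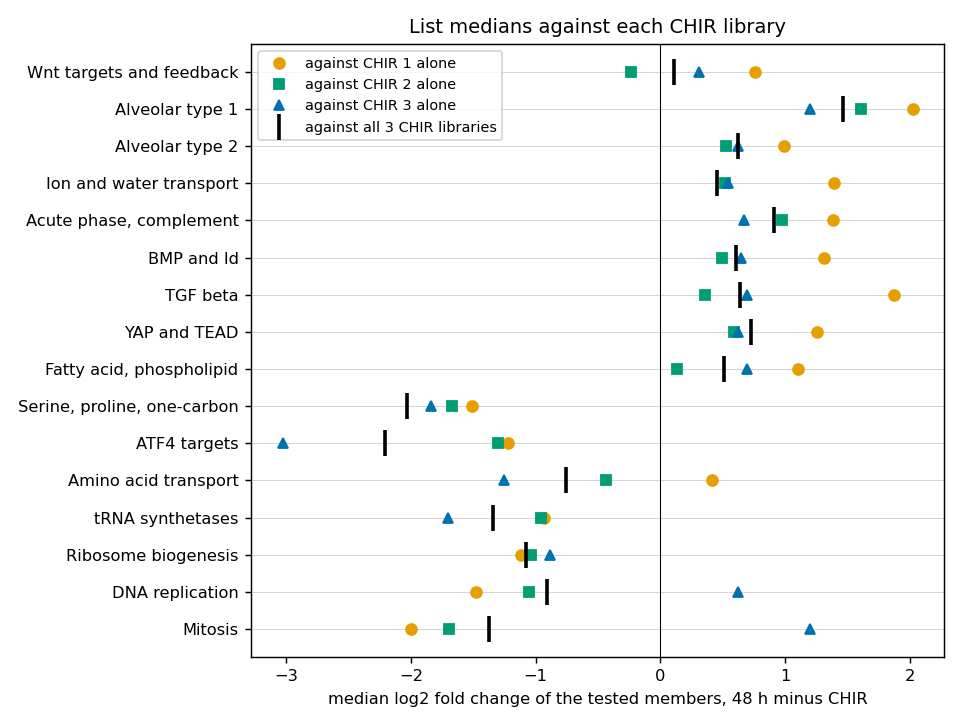
Median log2 fold change of the tested members of 16 gene lists against each CHIR library alone (circle, square and triangle for CHIR 1, 2 and 3; 16 libraries in each fit) and against all 3 (bar). The ribosome, serine and tRNA synthetase medians stay below 0 against each CHIR library, whereas the mitosis and DNA replication medians change sign against CHIR 3.

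Ion and water transport genes included 4 that rose and 1 that fell among 24 tested. Over all genes tested 1.1% rose and 1.49% fell. Slc4a5, a sodium bicarbonate cotransporter, was at 0.547, 1.06 and 0.752 CPM under CHIR against 9.16, 12.6 and 6.22 CPM after 48 h, a rise of 3.56 (SE 0.63, edgeR adjusted p = 0.0101). Kcne2, a potassium channel subunit, rose from 20.1, 12.7 and 32.7 CPM to 57.4, 70.7 and 61.1 CPM, and Car8, a carbonic anhydrase-related protein, from 71.6, 83.4 and 114 CPM to 190, 156 and 182 CPM. Scnn1g rose as given among type 1 genes, and Car2 was the one that fell. The chloride channel Ano1 was at 49.8, 108 and 239 CPM under CHIR against 374, 474 and 351 CPM after 48 h without a call (edgeR adjusted p = 0.121). Higher calls numbered 2, 3 and 8 without CHIR 1, 2 and 3, and 1, 2 and 1 without 48 h library 1, 2 and 3; Car2 was called in each.

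Among 17 tested acute phase and complement genes, Itih4, Lbp, Cd14 and C3 rose, as 1.1% of all genes tested did, and 0 fell (median log2 difference 0.91). Itih4, an acute phase protein of the inter-alpha-trypsin inhibitor family, was at 9.96, 8.90 and 27.4 CPM under CHIR against 127, 82.1 and 112 CPM after 48 h (log2 change 2.79 ± 0.50 SE, edgeR adjusted p = 0.0102). C3, the central complement component, rose from 61.4, 144 and 240 CPM to 424, 407 and 417 CPM, and Lbp, which presents lipopolysaccharide to Cd14, from 58.2, 72.2 and 73.8 CPM to 181, 166 and 188 CPM. Cd14 rose from 272, 172 and 164 CPM to 407, 365 and 419 CPM. Haptoglobin, Hp, was at 17.8 and 9.24 CPM in CHIR 1 and 2, at 377 CPM in CHIR 3 and at 609, 473 and 555 CPM after 48 h, without a call. Calls numbered 2, 3 and 4 without CHIR 1, 2 and 3 and 0, 1 and 1 without 48 h library 1, 2 and 3.

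In the BMP list of 23 tested genes, 3 rose (1.1% of all genes tested did), Bambi and Atoh8 among them. Atoh8, a transcription factor downstream of BMP receptors, was at 7.93, 20.2 and 15.7 CPM and then at 47.8, 77.6 and 51.8 CPM (log2 change 2.01 ± 0.44 SE, edgeR adjusted p = 0.0241). No BMP call was made without any one of the 48 h libraries. Of 25 TGF beta genes only Pmepa1, a feedback inhibitor, was called, from 11.4, 11.6 and 10.4 CPM to 28.6, 24.0 and 23.9 CPM. Of 25 YAP and TEAD targets, edgeR called 0, 9 were higher at an unadjusted p under 0.05 (16.5% of all genes tested passed it in either direction), and DESeq2 and limma voom called 5 and 4 as higher. In this list 15 had all 48 h libraries above all CHIR libraries (14.5% of genes tested did), Ccn1 among them at 92.8, 108 and 98.3 CPM and 333, 277 and 280 CPM. The median of that list was 0.73, and 1.26, 0.59 and 0.62 against CHIR 1, 2 and 3 alone. Among 29 fatty acid and phospholipid genes, Fabp5, a fatty acid carrier, rose from 142, 207 and 220 CPM to 444, 456 and 430 CPM, and Lpin1, a phosphatidate phosphatase, rose by 1.49.

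For proliferation genes the direction depended on which CHIR library was the control. Mki67 was at 207, 189 and 15.3 CPM in CHIR 1, 2 and 3 and at 51.2, 64.8 and 60.7 CPM after 48 h, so 48 h was lower than CHIR 1 and 2 and higher than CHIR 3. Its log2 difference was -1.80, -1.67 and 1.94 against CHIR 1, 2 and 3 alone. The 30 mitosis genes had medians of -1.995, -1.70 and 1.2 in the same order, with 30, 30 and 0 genes lower, and the 30 DNA replication genes had -1.48, -1.06 and 0.62, with 29, 30 and 1 lower. Against all 3 CHIR libraries the medians were -1.37 and -0.91 and edgeR called 0 genes in either list. At an unadjusted p under 0.05, 8 mitosis and 9 replication genes were lower (16.5% of all genes tested passed it in either direction). DESeq2 called 0 mitosis and 1 replication gene lower, and limma voom 1 and 0. Without CHIR 3, 4 mitosis and 8 replication genes were called lower.

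Airway and other markers moved with single genes or libraries. Sec14l3, a lipid transfer protein on the ciliated cell list, was at 0.711, 0.970 and 2.89 CPM under CHIR against 78.2, 127 and 65.5 CPM after 48 h (log2 change 5.88 ± 0.96 SE, edgeR adjusted p = 0.00762). The 16 ciliated genes summed to 5.84 to 8.32 CPM with CHIR and to 76.6 to 146 CPM after 48 h, and Sec14l3 made up most of the sum only after 48 h. The defining factor Foxj1 stayed under 1 CPM in all 6, and 12 of the 16 genes did. The 14 club and secretory genes summed to 79.5, 76.1 and 1102 CPM in CHIR 1, 2 and 3 and to 618 to 790 CPM after 48 h, of which Cyp2f2 gave 511 to 648 CPM, while Bpifa1 and Reg3g had no count after 48 h. edgeR called 0 of 13 club genes tested. At an unadjusted p under 0.05, 1 was lower (16.5% of all genes tested passed it in either direction). DESeq2 called 0 and limma voom called 1 as higher. The part of other cells in the results above was not tested.

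Other lists held few calls, where 1.1% of all genes tested rose and 1.49% fell. Plaur, the urokinase receptor, was the only call among 20 transitional state genes and fell from 56.2, 23.9 and 87.5 CPM to 10.6, 8.42 and 10.6 CPM. Csf1, the macrophage growth factor, rose from 16.5, 43.8 and 39.8 CPM to 164, 237 and 168 CPM, the only call of 22 chemokine and cytokine genes. Nrp2, a semaphorin co-receptor, rose from 1.45, 3.17 and 3.29 CPM to 11.9, 19.4 and 10.5 CPM. Npc2 (lysosomal cholesterol export), H2-T23 (antigen presentation) and Btg2 (an antiproliferative p53 target) rose by 0.88, 1.04 and 1.18. edgeR called 0 members of the cholesterol synthesis, claudin, Notch and interferon lists. At an unadjusted p under 0.05 these held 3 of 24, 4 of 22, 4 of 16 and 3 of 22 genes in either direction. Over all genes tested 16.5% passed it. DESeq2 called 0, 1, 3 and 1 in these lists, and limma voom 1, 2, 0 and 1. edgeR also called 0 ERK feedback, glucocorticoid and hypoxia genes. At an unadjusted p under 0.05 these lists held 5 of 29, 5 of 18 and 1 of 26 genes, beside the same 16.5%. DESeq2 called 1, 4 and 0 of the members, and limma voom 3, 0 and 0.

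Of 71 genes named by rule, 64 were called, and 27 of these kept the call when any one of the 6 libraries was left out. They included Phgdh, Psat1, Shmt2, Tars, Cars, Srm, Mettl1, Nop58, Rrp9, Steap1, Car2, Hopx, Cryab, Chil1, S100g, Nkd1, Slc4a5, Fabp5 and Sec14l3. Only the 14 fixed genes could be named without a call, so the 64 was largely fixed in advance. Some genes were named for a call against each CHIR library alone, which used the same libraries as the omissions. How many of all called genes would keep the call was not counted. Nkd1, Hopx and Chil1 kept the call but were not called against each CHIR library alone in the 16-library fits. The 24 h libraries, which share the CHIR controls, lay between the groups for several of the named genes. Psat1 was at 160, 63.4 and 150 CPM after 24 h, Phgdh at 13.8, 13.1 and 13.1 CPM, Asns at 222, 201 and 206 CPM, Steap1 at 9.71, 6.17 and 8.79 CPM and Hopx at 129, 147 and 95.5 CPM. Chil1 did not: at 6931, 3919 and 6614 CPM after 24 h, it was at the level of CHIR.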

How the data were processed

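Raw counts per gene, deposited by the authors beside RPKM values that were not used here, were taken as deposited from 18 libraries (mouse; total RNA, stranded kit, per the labels' protocols). The deposited RPKM column is scaled per gene length and library size by the authors. Reads had been aligned with GSNAP to GRCm38, per the submitters' processing notes; versions, annotation, counting tool and its strand setting: not given in the sources used here. Symbols and positions came from GENCODE M21, which matched 52403 of 52636 gene IDs, and promoters from RefSeq (GRCm38.p6).

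Counts were fitted with edgeR 4.0.16 in R 4.3.3 (filterByExpr, TMM, robust quasi-likelihood) over all 18 libraries in 6 groups. The filter removed 36139 genes and left 16497; p-values were adjusted over these by Benjamini and Hochberg, and a gene was called under 0.05. CPM are TMM-scaled, and the SE of a log2 fold change was derived from its F statistic. Alternatives were DESeq2 1.42.0, limma 3.58.1 with voom, other scalings, filters and sets of libraries; the procedure was also tested on simulated data. Comparison of replicates by chi-square found none that agreed within sampling noise. Members and lists were chosen with earlier results of these data known. Named were up to 12 genes per direction that were called, did not overlap, averaged at least 2 log2 CPM and were called against each CHIR library alone, up to 4 called members per list by p, and 14 fixed genes. Uncalled list members and further called members were named after their values were seen. Overlap with another gene makes 20 of the 71 named genes uncertain, since the strand setting is not known. Results for some genes are not reported here.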

Additional observations from a re-analysis of the deposited data

How the results depend on the processing

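Among the 64 called named genes, all 1472 values under 23 alternatives kept the direction, and 1138 were also called. The agreement in direction was largely fixed in advance. These genes were taken for their calls, their groups did not overlap, and some alternatives had served in the naming. The counts of higher and lower genes (181 and 246) were 541 and 758 with DESeq2, 485 and 622 with limma voom, 110 and 94 with no filter, 74 and 55 with only the 6 compared libraries, 32 and 25 when tested against a fold of 1.5, and 1244 and 1770 with 24 h withdrawal 2 and FZD6 agonist 1 left out. Against CHIR 1, 2 and 3 alone they were 1751 and 1091, 75 and 48, and 28 and 69 with 16 libraries, and 5004 and 4228, 2372 and 2419, and 3501 and 3507 with 14. Leaving out 1 library gave 32 to 436 higher and 25 to 484 lower. The all-gene median stayed between -0.07 and 0.06.

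No pairing by replicate number was detected. Deviations of same-numbered libraries correlated at 0.029, -0.114 and 0.0093, and no library correlated best with its own number. The CHIR libraries differed widely among themselves, so a weak pairing could have been missed. With the replicate block 120 genes were higher and 137 lower.

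Some named genes without a call reversed: Notum (0.74 in the full comparison) to -0.051 and -0.064 against CHIR 3 alone with 16 and 14 libraries, Sftpc to 0.36 and 0.37 against CHIR 2 alone, Lyz2 to -0.16 and -0.14 against CHIR 1 alone, and Mki67 to 1.94 and 1.94 against CHIR 3 alone. Scgb1a1 (-4.70) went to 0.55 with limma voom, 1.41 and 1.44 against CHIR 1 alone, 2.86 and 2.87 against CHIR 2 alone, and ranged from -5.27 to 1.99 (without CHIR 3) with 1 library left out; the cause was not tested. Genes at a few counts, such as Lgr5 and Wnt3a after 48 h or with CHIR, were limited by depth.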

Other observations

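Several called genes stood in none of the lists and were chosen after their values were seen. Mxd1, a Max-binding repressor that opposes Myc, was at 20.2, 29.6 and 32.7 CPM under CHIR against 90.0, 94.2 and 79.1 CPM after 48 h (log2 change 1.67 ± 0.30 SE, edgeR adjusted p = 0.0101). Its relative Mxd4 rose from 6.92, 8.40 and 25.5 CPM to 46.7, 54.4 and 43.7 CPM. Cdkn1b, the cyclin-dependent kinase inhibitor p27, was at 10.2, 12.4 and 6.46 CPM and at 20.3, 22.1 and 20.9 CPM after 48 h. Txnip, an arrestin that restrains glucose uptake, was at 19.7, 35.9 and 17.1 CPM and rose to 88.4, 110 and 91.8 CPM. Fbxo32, a ubiquitin ligase subunit, rose by 2.79 on the log2 scale.

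Azin2, an antizyme inhibitor, rose by 1.78 (edgeR adjusted p = 0.00621), Azin1 went from 83.9, 184 and 147 CPM to 401, 283 and 396 CPM, and Oaz2, an antizyme, rose by 1.10. Shh, the hedgehog ligand, was at 3.99, 7.85 and 3.36 CPM under CHIR against 29.5, 34.3 and 32.9 CPM after 48 h (log2 change 2.67 ± 0.53 SE, edgeR adjusted p = 0.0159). Ptch1, its receptor and a hedgehog target, was at 9.36, 14 and 7.92 CPM and at 23.2, 23.4 and 23.7 CPM. The necroptosis kinase Ripk3 fell from 65.3, 39.5 and 21.3 CPM to 9.16, 9.61 and 11.4 CPM, and its substrate Mlkl fell by 1.21. In each of Mxd1, Shh, Ptch1 and Ripk3 the groups did not overlap. The same held for all 181 genes called higher and for 245 of the 246 called lower, so it adds nothing to the calls. Over all genes tested 14.5% lay fully above and 14.5% fully below.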
